A study of Homo sapiens with 4 samples.

Results

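The difference between blocking the kinase activity of MET and lowering its message was measured in Hs746T cells, a human gastric carcinoma line that carries both MET exon 14 skipping and MET amplification. Total RNA of 4 cultures was hybridised to Agilent human 44K (V2) arrays, 1 array for each condition. One pair of cultures received PHA665752, a small-molecule blocker of the MET kinase, or DMSO as its solvent control, and the other pair received an siRNA against MET or a scrambled (sc) siRNA, with collection 48 h after transfection. All 4 conditions share the cell line and its growth medium with serum, which the siRNA pair received once transfection in Opti-MEM was over, and the dose and duration of PHA665752 for the arrays are not given in the sources used here. For each gene the inhibitor effect is the log2 signal on the PHA665752 array minus that on the DMSO array, the siRNA effect is the log2 signal on the MET siRNA array minus that on the sc siRNA array, and the quantity described here is the inhibitor effect minus the siRNA effect. A gene entered when its probe was well above background and free of outlier marks on all 4 arrays, which left 13073 of the 19736 genes named on the array (66.2%). With 1 array a condition there is no replicate and no test, so a difference of more than 2-fold (beyond 1 or -1 on the log2 scale) is a description of these 4 arrays.

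MET is the receptor tyrosine kinase of hepatocyte growth factor. Its active kinase docks adaptors that feed the RAS-MAPK cascade, which switches on immediate early genes and its own feedback inhibitors, and the PI3K-AKT pathway, which keeps FOXO transcription factors out of the nucleus. A kinase inhibitor acts on the protein that is already present and can also meet other kinases, whereas an siRNA removes the messenger RNA and leaves the existing receptor to decay. Amplification of MET can leave the receptor active without its ligand, and loss of exon 14 removes the stretch through which the receptor is marked for degradation.

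The arrays were alike in quality with 1 exception. Flags removed between 1.69% and 5.58% of spots and between 61.1% and 68.2% of probes were well above background, the extreme values of both ranges (5.58% and 61.1%) belonging to the MET siRNA array. A lack of signal on the MET siRNA array alone kept 338 genes out, against 25 to 63 for each of the other arrays. All 4 arrays lay on 1 slide and were read in 1 scan. Repeated spots of the same probe gave a spot-to-spot SD of 0.11 for the log2 difference of the effects, 0.19 for dim probes and 0.10 for brighter ones, which covers the array surface only and not the cultures. The keratins KRT8, KRT18, KRT7 and KRT19 and the epithelial adhesion molecule EPCAM were well above background on all 4 arrays, as were the mesenchymal genes CDH2 and ZEB1, the gastric genes TFF1 and TFF2 (signals of 41.7 to 87.6), the leukocyte genes PTPRC and CD14 and the endothelial genes PECAM1, CDH5 and VWF. The epithelial cadherin CDH1 was so on 3 arrays and the gastric claudin CLDN18 on 1, and the T cell, erythroid and gastric pit markers CD3E, HBB and GKN1 on none. PTPRC rested on a dim probe, with signals of 22.7 to 37.8, and its other probes did not pass. Signals were 113 to 140 for CD14, 63.5 to 88.5 for CDH5, 30.9 to 182 for VWF and 304 to 1846 for PECAM1. The lowest signals called well above background were 10.2 to 17.4 on the 4 arrays.

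The message of the targeted gene differed little between the arms. MET gave a mean signal of 221451 with DMSO against 100492 with the inhibitor, and 190010 with sc siRNA against 77853 with MET siRNA over 10 spots, so the message was lower under both treatments. Its inhibitor effect was -0.93 and its siRNA effect -1.33, a difference of 0.41. MET was 1 of the 27 genes that were lower by more than 2-fold with siRNA (0.207% of genes), although the inhibitor left it short of that fold. The arrays read message only, and the study reported a stronger loss of phosphorylated MET with PHA665752 than with knockdown.

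Across all genes the inhibitor effect was wider than the siRNA effect. The SD over genes was 0.86 for the inhibitor and 0.32 for siRNA. Past 2-fold, 1468 genes (11.2%) were above and 1042 (7.97%) below the DMSO array with the inhibitor, while MET siRNA placed 145 (1.11%) above and 27 below the sc siRNA array. The effects shared a sign in 69.9% of genes. A straight line through the genes had a slope of 0.20 for the siRNA effect per unit of inhibitor effect, with a Pearson r of 0.55 that describes these genes on arrays of the same slide. The difference of the effects had a median of 0.08, and it exceeded 1 in 1023 genes (7.83%) and lay below -1 in 804 genes (6.15%). Of the genes past either limit, 56.0% were on the higher side, a share that was 35.8% when each array was scaled by its 50th percentile, 72.7% when scaled by the median of its probes well above background and 37.0% in the brighter part of the probes. The 50th percentile moved the median of all genes by -0.21 and the other median by 0.21, so the lists below were also read relative to all genes.

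The members were mostly genes with a large inhibitor effect and a small siRNA effect. Of the 1023 higher genes, 906 had an inhibitor effect past 2-fold on its own and 724 (70.8%) had an siRNA effect within 0.5 of 0 on the log2 scale. In 254 of them (24.8%) the siRNA effect went the same way by more than 0.5, and in 45 the other way. Of the 804 lower genes, 713 had an inhibitor effect past 2-fold, 650 (80.8%) had an siRNA effect within 0.5, 106 (13.2%) went the same way by more than 0.5 and 48 the other way. Over all genes the siRNA effect had a median of -0.02 and an SD of 0.32, so a value within 0.5 was usual for genes at large. Probes of the higher genes were dim on the DMSO array, with a median signal of 126.5 (346.6 on the PHA665752 array) against 921.8 over all genes, and those of the lower genes were bright, with 1539 (395.7 on the PHA665752 array). Where a higher gene had another probe that passed, 168 of 179 such probes had the same sign and 102 were past 2-fold the same way, and for lower genes these counts were 192 and 139 of 207. The edges of the higher group were crowded, since TMTC4 stood just inside at 1.0 and ZNF836 just outside at 0.999. On the lower side RGS12 was just outside at -0.999 and PRPS2 just inside at -1.0.

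**Figure D1:**
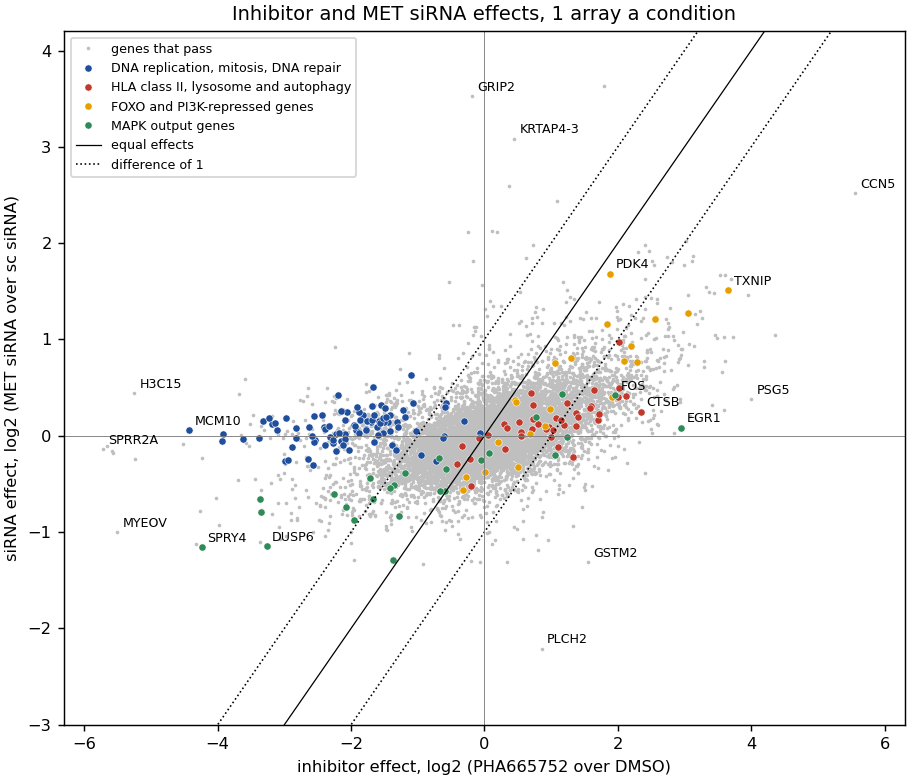
Each grey point is 1 of the 13073 genes, with the inhibitor effect on the horizontal axis and the siRNA effect on the vertical axis, both in log2. The solid line marks equal effects and the dotted lines a difference of 1 either way. The blue replication, mitosis and repair genes extend left along an siRNA effect near 0, while MAPK output genes (green) and FOXO genes (yellow) lie on a slope.

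The 4 arrays have 2 controls, and these differed. Relative to DMSO, 268 genes (2.05%) were above and 70 (0.535%) below by over 2-fold on the sc siRNA array. Solvent, transfection reagent, scrambled siRNA and time in culture cannot be told apart in this difference. The controls enter the difference of the effects with opposite signs, so the direct value of the PHA665752 array against the MET siRNA array was read as well. Directly, 649 of the 1023 higher genes (63.4%) and 577 of the 804 lower genes (71.8%) were past 2-fold the same way. Among all genes 954 (7.3%) were higher and 816 (6.24%) lower. The direct value reuses the PHA665752 and MET siRNA arrays that picked these genes, so it is not independent support for them.

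The lowest differences belonged to replication and histone genes and to a family of squamous envelope genes. MCM10 is a replication factor that loads onto origins when the replicative helicase is switched on. Its signal was 377 with DMSO against 15.1 with the inhibitor, and 208 with sc siRNA against 223 with MET siRNA. Only the PHA665752 array was low, so its inhibitor effect was -4.43, its siRNA effect 0.06 and the difference -4.49, or -2.28 with the normexp background correction, which adds an offset of 50 and so shrinks the values of dim spots. CDC45, a subunit of that helicase, had signals of 16331, 930.4, 8277 and 8634 in the same order of arrays, an inhibitor effect of -3.92 and an siRNA effect of 0.01. CLSPN (claspin), which links stalled forks to the checkpoint kinase CHK1, had signals of 1751, 99.2, 952 and 950. Both genes were thus more than 10-fold lower with the inhibitor and moved by less than 0.1 on the log2 scale with siRNA.

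Over the list of replication genes, 35 of 36 passed and 34 had a difference below -1, against 6.15% of all genes, with none above 1. The median inhibitor effect was -2.32, the median siRNA effect 0.02 and the median difference -2.30, which ranged from -2.52 to -2.10 over the alternative settings. The genes spanned origin licensing (ORC1 with a difference of -3.35, CDC6 with -2.72, CDT1 with -3.16), the MCM helicase subunits that passed (from -2.49 for MCM2 to -1.99 for MCM6), the GINS complex, the polymerases and primases (POLA2 with -3.17, POLE with -1.40), the sliding clamp PCNA with -2.30 and the chromatin assembly factor subunits CHAF1A with -2.81 and CHAF1B with -2.31. The exception was GINS3, at -0.10, whereas the other GINS subunits GINS1, GINS2 and GINS4 were at -2.50, -3.47 and -2.27.

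Nucleotide synthesis genes were lowest for enzymes of S phase. RRM2, the regulated subunit of ribonucleotide reductase, had signals of 1367, 62.7, 608 and 536 and a difference of -4.00. TYMS (thymidylate synthase) had a difference of -2.90. In the list as a whole 5 of 20 genes were below -1 (12 with scaling by the 50th percentile), against 6.15% of all genes at the main scaling. The median was -0.90, GART of purine synthesis being at -0.75 with an inhibitor effect of -1.02.

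Mitotic genes were lower to a smaller degree but as uniformly. Of 35 that passed, 34 were below -1, against 6.15% of all genes, the exception being the mitotic kinesin KIF20A at -0.91. The median inhibitor effect was -1.70 and the median siRNA effect 0.16. CDK1, the kinase that drives entry into mitosis, was read on 10 spots with mean signals of 17053, 2708, 9037 and 10804. SPC25 and SPC24, partners in the NDC80 complex of the kinetochore, had signals of 5558, 525, 2737 and 3068 and of 368, 69.1, 158 and 218, with differences of -3.31 and -2.62 (-1.62 for SPC24 with normexp). The other NDC80 subunits NUF2 and NDC80 were at -2.05 and -1.91, the Aurora kinases AURKA and AURKB at -1.91 and -2.19, and the B-type cyclins CCNB1 and CCNB2 at -1.56 and -1.49.

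Among DNA repair genes 16 of 22 were below -1, against 6.15% of all genes, with a median of -2.22. The nuclease EXO1 (-3.59), the helicase BLM (-3.41) and the recombination motor RAD54L (-3.27) were lowest. EXO1 had mean signals of 1100, 77.1, 558 and 563 over 10 spots. The recombination gene BRCA1 and the Fanconi gene FANCA lay at -2.76 and -2.43. The mismatch repair gene MSH6 was at -0.59 and the damage kinases ATM and ATR were at -0.46 and -0.47, and the inhibitor effects of MSH6, ATM and ATR were under 2-fold too.

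**Figure D2:**
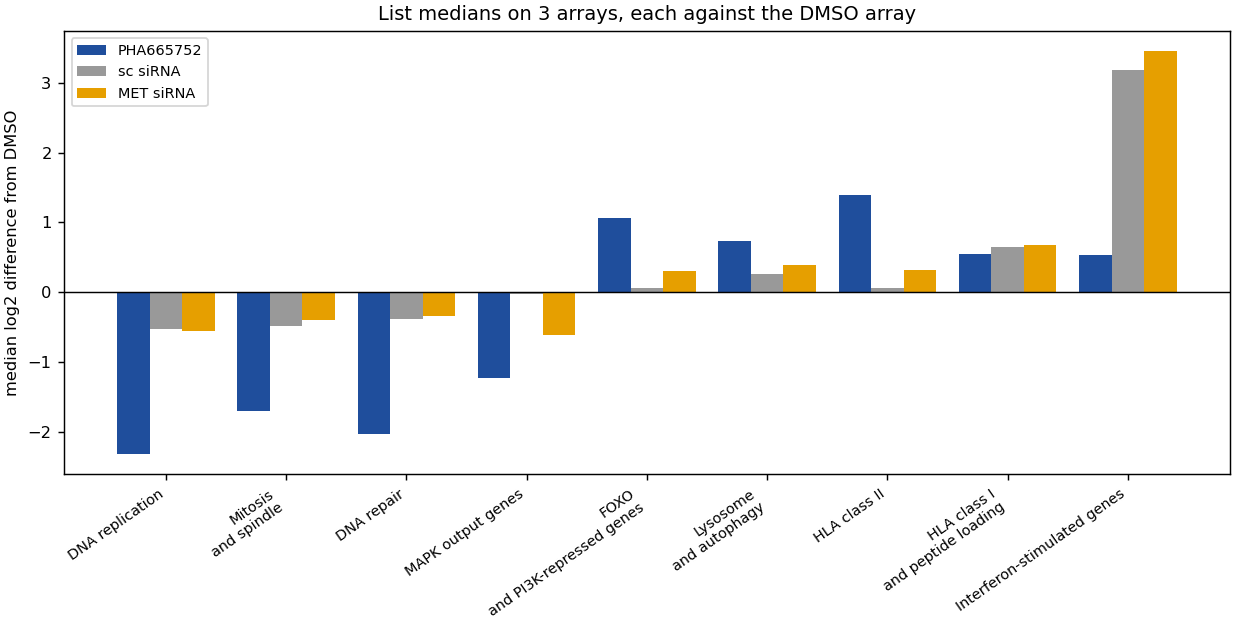
Bars give the median over each list's genes of the log2 signal on the PHA665752, sc siRNA and MET siRNA arrays minus that on the DMSO array. For DNA replication the sc siRNA array was at -0.52 and the PHA665752 array at -2.32, and for interferon-stimulated genes the sc siRNA array was at 3.19.

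The cell-cycle lists were themselves lower on the sc siRNA array than on the DMSO array, with medians of -0.52 for replication, -0.48 for mitosis and -0.38 for repair, and with 34 of 35, 35 of 35 and 20 of 22 genes below 0. Over all genes the median of this control difference was -0.01. The part of the control difference in these results was not tested. Directly between the PHA665752 and MET siRNA arrays, the medians were -1.77, -1.34 and -1.87, and 31 of 35, 29 of 35 and 13 of 22 genes were lower by more than 2-fold, against 6.24% of all genes in this direct comparison. In bulk RNA, fewer cycling cells and less of a message in each cell cannot be told apart.

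The regulators of the G1 to S transition were divided. The activator transcription factors E2F1 and E2F2 had signals of 4016, 302, 1992 and 2236 and of 1029, 69, 399 and 558, with differences of -3.64 and -4.12. CCNE2 (cyclin E2) was at -3.37 (-1.69 with normexp) and its kinase CDK2 at -1.95. The D-type cyclins diverged, CCND1 and CCND3 both being at -1.41 while CCND2 was at 1.24. CCNE1, CDK4, RB1 and E2F3 differed by less than 0.25 between the arms. Of the CDK inhibitors, CDKN1C (p57) was at 1.62, CDKN1B (p27) at 0.70, CDKN1A (p21) at -0.94 and CDKN2D (p19) at -1.1. In all, 11 of 27 genes were below -1 and 2 above 1, against 6.15% and 7.83% of all genes.

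The histone list was not lower as a whole on the probes read here. H3C15 had the lowest difference of all genes, -5.69, with signals of 29537, 670.1, 10382 and 14570. It is not in the histone list, where 4 of 16 genes were below -1, against 6.15% of all genes. H3C2, H3C10 and H3C8 were at -4.17, -3.14 and -1.05, and H2BC21 was at -1.89 on a probe whose partner gave 1.54. The list median was -0.17 (from -0.38 to 0.04 over the settings), and the linker histone H1-2 was at 0.63, with an inhibitor effect of 1.1. Clustered histone genes are near copies of each other, so their probes can share signal. H3C15, H3C2 and H3C10 also stood between -1.37 and -1.08 on the sc siRNA array relative to the DMSO array.

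**Figure D3:**
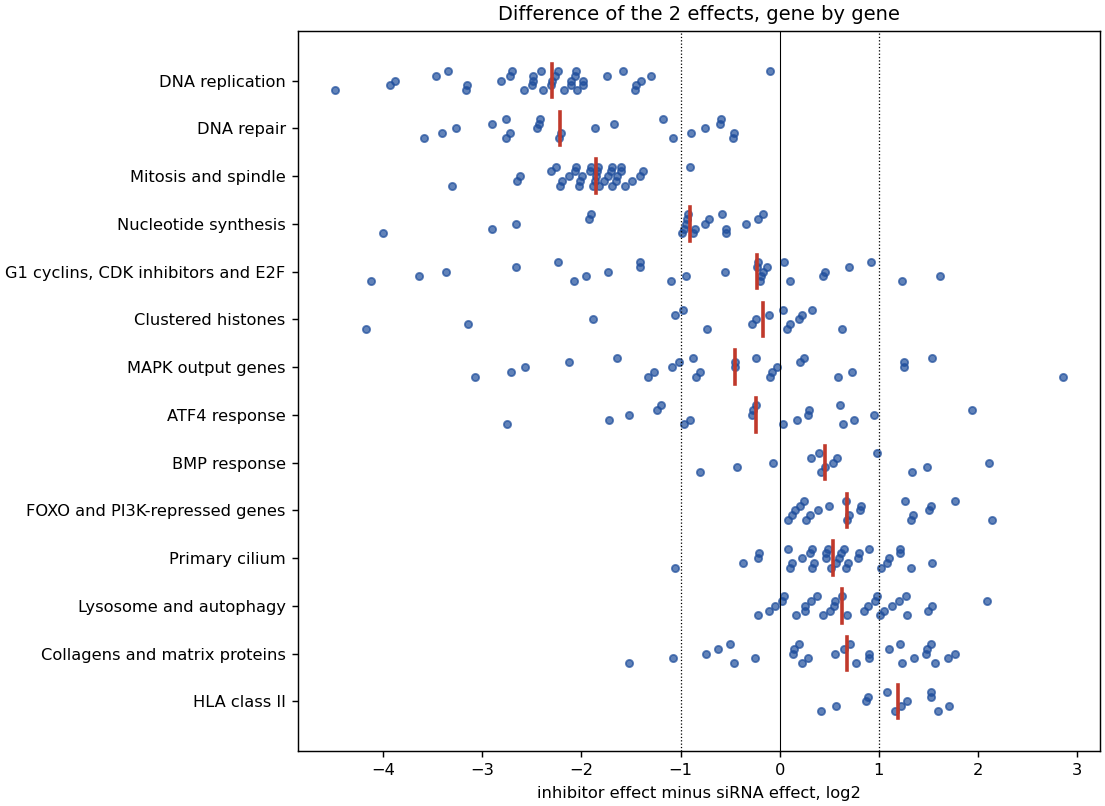
Each blue point is 1 gene, placed by its inhibitor effect minus its siRNA effect in log2 (horizontal axis), within 14 lists (vertical axis). Red bars are medians, which run from -2.30 for DNA replication to 1.19 for HLA class II, and the dotted lines mark -1 and 1.

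Because so many cycle genes were displaced together, their promoters were compared with the RefSeq promoter table (GRCh38.p14, 250 bases before and 50 after each annotated start, 27305 promoters). The letters searched, on both strands, were CCAAT (the CCAAT box, bound by NF-Y), TTTGAA (the cell cycle genes homology region, CHR, of late cell-cycle promoters), TTCCCGC or TTTGGCGC (E2F sites) and CACGTG (the canonical E-box), beside the longer CArG box by its name. Of these motifs only the CArG box can contain another, the letters CCAAT. The CHR letters lay in 74.2% of the 31 mitosis promoters with a sequence, in none of the 32 replication promoters and in 10.1% of the 10424 promoters of genes that passed. E2F letters lay in 59.4% of replication, 45.0% of repair and 9.68% of mitosis promoters, against 10.8% of all genes that passed. CCAAT was found in 80.6% of mitosis promoters and in 53.1% of replication promoters, against 37.1%. Over the 646 promoters of genes below -1, the shares were 48.1% for CCAAT, 22.4% for CHR and 19.0% for E2F letters, and over the 758 promoters above 1 they were 32.7%, 10.0% and 6.46%. These are matches of letters and are not measured binding. The promoters of MCM10 (chr10:13161308-13161607, plus strand), CDC45 (chr22:19479670-19479969, plus strand) and SPC25 (chr2:168890381-168890680, minus strand) are given 5′ to 3′ because these genes led the replication and mitosis lists, with all searched matches in capitals.
MCM10: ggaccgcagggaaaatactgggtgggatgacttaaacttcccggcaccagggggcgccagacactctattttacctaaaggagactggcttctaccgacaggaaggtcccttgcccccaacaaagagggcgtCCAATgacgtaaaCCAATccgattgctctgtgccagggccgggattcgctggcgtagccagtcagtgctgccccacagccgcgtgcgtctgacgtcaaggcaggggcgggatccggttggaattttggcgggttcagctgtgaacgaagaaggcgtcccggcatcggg
CDC45: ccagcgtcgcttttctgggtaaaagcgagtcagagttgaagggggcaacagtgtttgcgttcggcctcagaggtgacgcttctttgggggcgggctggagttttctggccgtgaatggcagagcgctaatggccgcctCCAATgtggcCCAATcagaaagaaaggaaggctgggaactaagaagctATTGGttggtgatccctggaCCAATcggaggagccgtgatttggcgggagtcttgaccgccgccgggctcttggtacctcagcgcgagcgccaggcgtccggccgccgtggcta
SPC25: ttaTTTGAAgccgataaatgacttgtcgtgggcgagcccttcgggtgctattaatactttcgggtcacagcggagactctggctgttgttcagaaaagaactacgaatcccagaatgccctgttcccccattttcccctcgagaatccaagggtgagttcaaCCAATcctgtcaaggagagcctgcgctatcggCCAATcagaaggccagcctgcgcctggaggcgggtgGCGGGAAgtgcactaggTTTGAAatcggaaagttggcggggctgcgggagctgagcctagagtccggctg

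The MCM10 promoter held a pair of CCAAT boxes beginning at -118 and -105 from the start. CDC45 held 4, at -112, -102, -64 and -44, the one at -64 on the opposite strand. SPC25 held CCAAT boxes at -88 and -56, E2F letters at -20 and CHR letters at -247 and across the start at -3. The motif sets were chosen with results of these data known, and no match says only that these letters are not in the window.

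The SPRR2 genes encode small proline-rich proteins of the cornified envelope and were the next lowest after H3C15. SPRR2A had signals of 23071, 378, 7211 and 6762 and a difference of -5.58, and SPRR2D, SPRR2F, SPRR2E and SPRR2C lay between -5.56 and -5.01. These genes are near-identical copies, so the 5 probes may report fewer than 5 messages. Their siRNA effects were between -0.24 and -0.10, and their log2 values on the sc siRNA array relative to the DMSO array ran from -1.49 to -1.35. MYEOV, a gene often amplified together with CCND1 in cancers, had signals of 5427, 103, 3823 and 1972 and was lower in both arms, with -5.50 for the inhibitor and -1.0 for siRNA. FAM111B, a serine protease, was at -4.44 with an siRNA effect of -0.08.

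The MAPK output genes, which report activity of the cascade below MET, showed 3 patterns. The feedback inhibitors and ETS factors were lower in both arms and more so with the inhibitor. SPRY4 (Sprouty 4) had a signal of 475 with DMSO against 21.7 with the inhibitor, and 399 with sc siRNA against 185 with MET siRNA. Both treatments lay below their controls, at -4.24 for the inhibitor and -1.16 for siRNA, and the difference of -3.08 was -1.54 with normexp and -1.02 as the median over the gene's probes. DUSP6, the ERK phosphatase, had signals of 8950, 802, 7699 and 3597 and effects of -3.27 and -1.14. FOSL1 (FRA1) had effects of -3.36 and -0.79, and ETV5 -3.37 and -0.66. Of the 26 genes that passed, 9 had a difference below -1, against 6.15% of all genes. An inhibitor effect below -1 was seen in 14 of them and an siRNA effect below -1 in 3, against 7.97% and 0.207% of all genes.

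A few MAPK genes had similar values in both arms. AREG (amphiregulin), a ligand of the EGF receptor, had signals of 1276, 426, 1250 and 527 and effects of -1.37 and -1.29, and it was the gene of this list with an inhibitor effect past 2-fold that lay nearest to equal effects. MYC was at -0.60 and -0.57 and the cytokine LIF at -0.67 and -0.57.

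The immediate early genes went the other way with the inhibitor. EGR1 had a signal of 617 with DMSO against 4094 with the inhibitor, and 924 with sc siRNA against 1013 with MET siRNA. It was high on the PHA665752 array alone, with an inhibitor effect of 2.94 and an siRNA effect of 0.08. FOS had signals of 3704, 12443, 1234 and 1708, an inhibitor effect of 1.96 and an siRNA effect of 0.42. Its sc siRNA value was -1.33 relative to DMSO. DUSP1 and EGR2 completed the 4 genes of this list above 1 (7.83% of all genes), at 1.26 and 1.26, and JUNB was at 0.73. EGR2 was as high on the sc siRNA array as on the PHA665752 array, with signals of 74.9, 153, 162 and 166. The list's median difference was -0.45, between -0.66 and -0.10 over the settings. The EGR1 promoter (chr5:138465229-138465528, plus strand) is shown because it holds a pair of CArG boxes, the element bound by serum response factor, starting at -105 and -83, as 1.09% of promoters of genes that passed hold any. The CArG box was added to the motifs after the values were seen, and the third run of capitals is the CHR letters on the opposite strand.
EGR1: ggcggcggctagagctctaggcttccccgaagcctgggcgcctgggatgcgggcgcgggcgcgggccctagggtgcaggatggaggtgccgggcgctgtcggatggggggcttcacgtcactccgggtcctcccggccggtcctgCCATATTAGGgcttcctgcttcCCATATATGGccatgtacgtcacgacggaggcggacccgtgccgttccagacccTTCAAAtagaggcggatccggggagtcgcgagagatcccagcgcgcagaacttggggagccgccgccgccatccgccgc

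**Figure D4:**
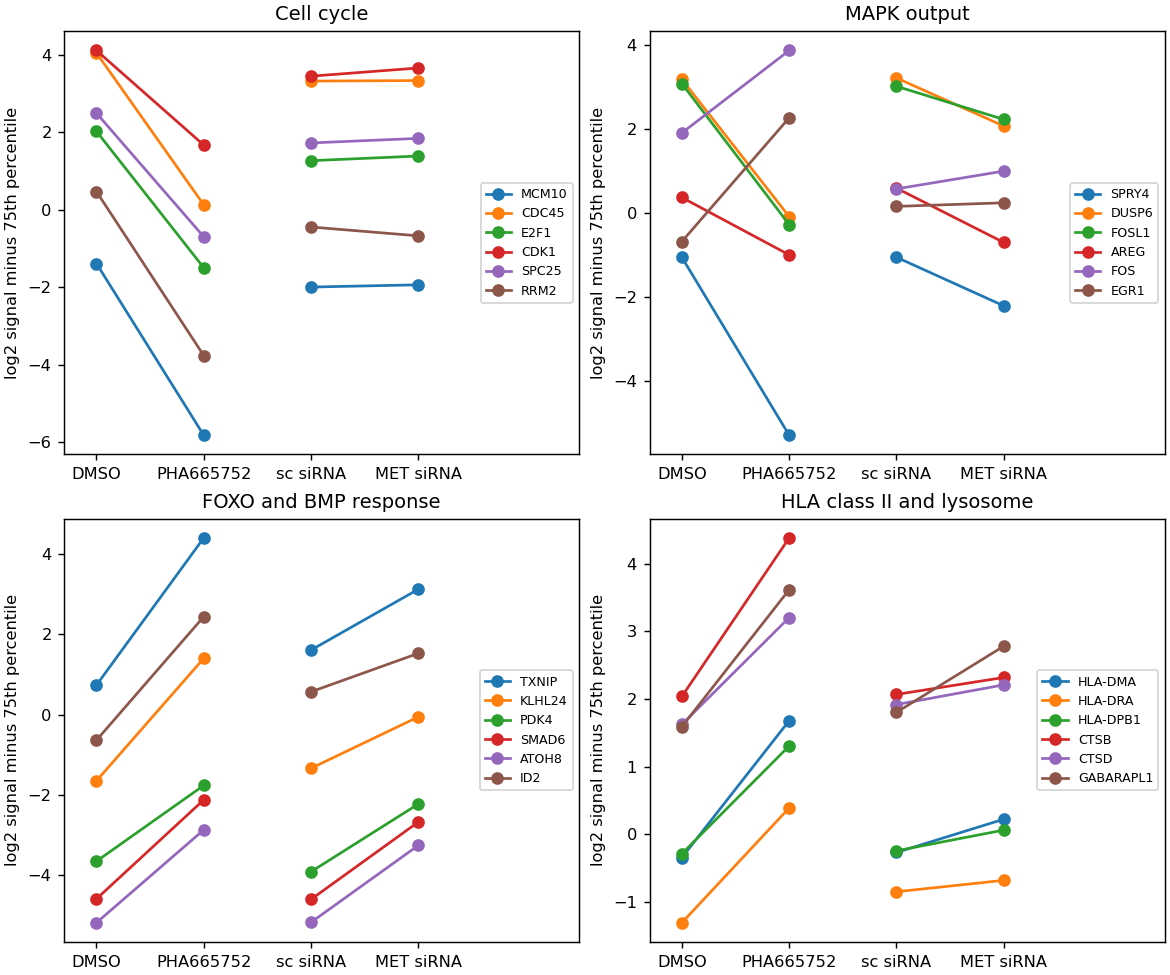
Points are log2 signals minus the array's 75th percentile (vertical axis) on the 4 arrays (horizontal axis) for 6 genes of each of 4 groups, and lines join each treatment to its own control. Cell-cycle genes slope down with PHA665752 alone, SPRY4, DUSP6, FOSL1 and AREG slope down in both arms, and PDK4, SMAD6 and ATOH8 slope up by similar amounts in both.

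Genes repressed by PI3K-AKT through FOXO factors were mostly higher with the inhibitor, several of them in both arms. TXNIP, an inhibitor of thioredoxin and of glucose uptake, had a signal of 1645 with DMSO against 17893 with the inhibitor, and 2524 with sc siRNA against 7432 with MET siRNA. Its effects were 3.66 and 1.51. KLHL24, a ubiquitin ligase adaptor, had effects of 3.04 and 1.28, and YPEL3 2.56 and 1.21. The insulin receptor INSR was at 1.84 and 1.16. PDK4, which holds pyruvate out of the mitochondrial cycle, was nearly equal, at 1.88 and 1.68. In the list 7 of 21 genes had a difference above 1, against 7.83% of all genes, with none below -1. An inhibitor effect above 1 was seen in 11 of them and an siRNA effect above 1 in 5, against 11.2% and 1.11% of all genes. The difference was positive in 21 of 21 genes at the main scaling. Its median of 0.68 lay between 0.39 and 0.89 over the settings, and the FOXO genes FOXO1 and FOXO4 were at 1.53 (0.96 with normexp) and 1.5 while FOXO3 was at 0.39.

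BMP response genes were divided between shared and inhibitor-led genes. The inhibitory SMAD6 had signals of 41.3, 196, 34.4 and 135 and effects of 2.46 and 1.92, and the transcription factor ATOH8 had effects of 2.31 and 1.91. ID2, an inhibitor of helix-loop-helix factors, had effects of 3.07 and 0.96, a difference of 2.12. ID1 was lower in both arms, at -0.43 and -0.37. BAMBI, a decoy receptor, was high on 3 arrays relative to DMSO, with signals of 8537, 19232, 27614 and 29610, so that its difference of 1.33 rests on a DMSO array that was low while the sc siRNA array was not. Of the 13 genes, 3 were above 1, against 7.83% of all genes.

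Messages of HLA class II genes, whose products present antigen, were higher with the inhibitor. HLA-DMA, which loads peptide onto class II molecules, had a signal of 780.2 with DMSO against 2734 with the inhibitor, and 689.8 with sc siRNA against 1002 with MET siRNA. The PHA665752 array stood above the other 3, and the effects were 2.02 for the inhibitor and 0.49 for siRNA. HLA-DMB and HLA-DOA, of the same loading machinery, had differences of 1.60 and 1.71, the latter 0.74 as the median over its probes. The presenting chains HLA-DRA, HLA-DPB1 and HLA-DQA1 were at 1.53, 1.29 and 1.16, the invariant chain CD74 at 1.22 on a dim probe, and CIITA, the master coactivator of the genes, at 0.41. In all, 8 of 12 genes were above 1, against 7.83% of all genes (5 to 10 over the scalings and normexp), and the list median of 1.19 lay between 0.90 and 1.40 over the settings. The controls were level for this list, with a median of 0.06 for the sc siRNA array over the DMSO array, and directly against the MET siRNA array 6 of 12 were above 2-fold, against 7.3% of all genes. HLA-DRB1 and HLA-DRB5 (0.88 and 0.89) are close paralogs whose probes can share signal. The HLA-DMA promoter (chr6:32953048-32953347, minus strand) is shown because CCAAT, read on either strand, lay in 9 of 10 class II promoters with a sequence, or 90.0% against 37.1% for all genes that passed. Both of its matches lie on the opposite strand, from -79 and -49.
HLA-DMA: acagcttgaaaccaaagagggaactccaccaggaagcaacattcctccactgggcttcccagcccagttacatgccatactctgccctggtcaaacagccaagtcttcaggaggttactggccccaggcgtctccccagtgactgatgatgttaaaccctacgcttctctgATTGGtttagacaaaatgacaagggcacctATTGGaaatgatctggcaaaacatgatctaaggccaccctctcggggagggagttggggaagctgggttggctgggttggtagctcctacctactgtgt

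HLA class I and peptide loading genes differed less. None of 16 was past 1 either way, against 7.83% of all genes above 1 and 6.15% below -1, and the median difference was 0.45. Their control difference was larger than either effect, at 0.65, and directly the PHA665752 array was -0.20 relative to the MET siRNA array. Interferon-stimulated genes showed this most. The sc siRNA array was 3.19 above the DMSO array in the median of 35 genes. MX2 had signals of 244, 1298, 9993 and 15190, so its difference of 2.07 compares changes from unequal starting points. Of these 35 genes 3 were above 1 and 1 below -1 (OAS3 at -1.22), against 7.83% and 6.15% of all genes. The list median of 0.14, which changed sign, lay between -0.07 and 0.35 over the settings. The interferon-stimulated response element, searched as a pair of its core repeats, lay in 65.4% of 26 promoters of these genes and 53.8% of 13 class I promoters, against 3.06% of genes that passed. Directly, all 35 were lower by more than 2-fold on the PHA665752 array than on the MET siRNA array, against 6.24% of all genes.

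Lysosomal genes were higher with the inhibitor. The protease cathepsin B (CTSB) had a signal of 4068 with DMSO against 17779 with the inhibitor, and 3483 with sc siRNA against 4281 with MET siRNA. Again the PHA665752 array stood alone, with effects of 2.34 and 0.25. Cathepsin A (CTSA) and cathepsin D (CTSD) were at 1.54 and 1.29, the cholesterol exporter NPC1 at 1.27, the saposin precursor PSAP at 1.20, acid alpha-glucosidase (GAA) at 1.13 and the autophagy receptor SQSTM1 (p62) at 1.49. SQSTM1 was also 1.04 higher on the sc siRNA array than on DMSO. GABARAPL1, an autophagosome protein, moved in both arms, with 2.02 and 0.98. Of 29 genes, 9 were above 1 (5 to 13 over the scalings and normexp) and none below -1, against 7.83% and 6.15% of all genes. The list median was 0.63 (from 0.42 to 0.84 over the settings). Cathepsin L (CTSL), TFEB and MAP1LC3B were among the exceptions, with inhibitor effects of -0.21, -0.40 and -0.33. The sc siRNA array was 0.27 above DMSO in this list, and directly 5 of 29 were above 2-fold, against 7.3% of all genes. The E-box letters CACGTG lay in 7 of 20 lysosomal promoters with a sequence (35%), against 9.94% of genes that passed. The CTSA promoter (chr20:45891085-45891384, plus strand) held a pair, from -42 and -25, which are the capitals below. It also holds the letters of the dioxin response core, TNGCGTG, left in lower case.
CTSA: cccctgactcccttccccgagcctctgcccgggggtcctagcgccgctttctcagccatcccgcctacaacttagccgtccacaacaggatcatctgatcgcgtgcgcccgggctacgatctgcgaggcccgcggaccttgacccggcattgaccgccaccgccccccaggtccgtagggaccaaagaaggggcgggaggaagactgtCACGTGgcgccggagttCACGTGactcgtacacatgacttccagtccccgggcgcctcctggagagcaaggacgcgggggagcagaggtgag

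Matrix, cilium and aryl hydrocarbon receptor genes also had higher differences. COL1A1 (collagen I) was read at 771, 6631, 696 and 2098 and was higher in both arms, at 3.32 and 1.54. COL7A1 and COL5A2 were higher with the inhibitor alone, at 1.55 and 1.53 against -0.03 and -0.16, although the difference of COL5A2 was 0.95 with normexp. Fibronectin (FN1) was at 1.48, fibrillin (FBN1) at 1.52 and SPARC at 1.21, whereas LAMA4 and versican (VCAN) were at -1.52 and -1.07. Counts were 10 of 28 above 1 and 2 below -1, against 7.83% and 6.15% of all genes. Among primary cilium genes 7 of 32 were above 1, a count of 2 with scaling by the 50th percentile and 4 with quantile normalisation or normexp. The 7 were led by the intraflagellar transport genes IFT140 (1.54) and WDR19 (1.21) and the BBSome gene BBS1 (1.32), against the same 7.83% of all genes. ARL6 was the 1 gene below -1, at -1.06. Axonemal genes also stood among the 15 highest differences of all genes, where DYNLRB2 had signals of 53.7, 549, 36.2 and 59.2, DNAH5 26.6, 195, 38.6 and 45.9 and DNHD1 18.4, 114, 40.8 and 42.9, all dim without the inhibitor, and with normexp the differences of DNAH5 and DNHD1 were 1.62 and 1.18. The medians of 0.68 for matrix and 0.54 for cilium kept their sign over the settings. The aryl hydrocarbon receptor list had 2 of 6 above 1, against 7.83% of all genes, AHR itself at 1.21 and NQO1 at 1.22. NQO1 was already 0.92 higher on the sc siRNA array than on DMSO. CYP1B1 was higher in both arms at 2.17 and 1.35. Directly between the PHA665752 and MET siRNA arrays none of the 6 was past 2-fold, against 7.3% of all genes higher. This list had a median difference of 0.72, and the dioxin response core TNGCGTG lay in 1 of 4 of its promoters (7.03% of genes that passed).

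Other genes with the highest differences were mostly near the detection limit on 3 arrays. PSG5, a pregnancy-specific glycoprotein with close paralogs, led with 3.62 and signals of 15.3, 212, 16 and 21.5. HSD17B3, a testosterone-forming enzyme, was at 3.33, the chitinase CHIA at 3.31 and the zinc finger gene TSHZ2 at 3.09. KIR2DS2 and GSTM2, at 2.83 and 2.87, also have near-identical relatives. CCN5 (WISP2) had the largest inhibitor effect of all genes, 5.55, together with an siRNA effect of 2.52, from signals of 42.8, 1732, 22.7 and 135. CFB (complement factor B) was brighter, at 226, 2591, 649 and 1369, with effects of 3.73 and 1.03. With normexp PSG5 was at 1.87, HSD17B3 at 1.57, TSHZ2 at 1.60, KIR2DS2 at 1.55, GSTM2 at 1.44 and CCDC170, another of the 15, at 1.5 from 2.59. The neurotrophin BDNF went in opposite directions, at 2.41 and -0.38.

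Metabolic and growth lists had medians nearer to 0. For their counts, 7.83% of all genes were above 1 and 6.15% below -1 at the main scaling. Ribosome biogenesis genes had a median inhibitor effect of -0.82 and a median siRNA effect of -0.37, with BOP1, at -1.36, the 1 gene of 24 below -1 at the main scaling, a count of 5 with the 50th percentile and 3 with normexp. Cytosolic ribosomal proteins had none of 23 past 1, with a median of 0.16 that changed sign over the settings (-0.05 to 0.36). Of 25 glycolysis and hypoxia genes 3 were below -1 (1 to 6 over the scalings and normexp), namely CA9 (carbonic anhydrase 9) at -1.53, BNIP3 at -1.16 and PGAM1 at -1.01, with a median of -0.40. Of 28 cholesterol and fatty acid genes 1 was above 1, SC5D at 1.76 on a dim probe (0.87 with normexp). The sterol element TCACNCCAC lay in 1 of 22 promoters of the cholesterol list (1.12% of genes that passed). HMOX1 (heme oxygenase 1), of the oxidative stress list, had signals of 13139, 32081, 44382 and 31037, so that its difference of 2.06 came with a sc siRNA array 2.01 above DMSO.

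The ATF4 response, the amino acid stress program, was split between the arms. SLC7A5, a leucine transporter, was lower with the inhibitor at -2.40 and had an siRNA effect of 0.35, a difference of -2.75 that was -1.80 with normexp. CHAC1, TRIB3 and ASNS (asparagine synthetase) had siRNA effects of 1.14, 1.09 and 0.80, with inhibitor effects of -0.38, -0.15 and -0.39. ATF3 was higher in both, at 3.61 and 1.67. Counts were 5 of 19 below -1 and 1 above 1, against 6.15% and 7.83% of all genes. The list median of -0.24 changed sign over the settings (-0.46 to 0.03). CHAC1 and TRIB3 were already 1.33 and 1.25 higher on the sc siRNA array than on DMSO.

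Survival genes and receptors gave single large differences. BCL2 had signals of 152, 20.8, 98.1 and 81.4 and a difference of -2.34 (-0.87 with normexp), while the BH3-only gene BMF was higher in both arms, at 2.99 and 1.78, and BCL2L11 (BIM) was at 0.46 and 0.38. EPHA2, an ephrin receptor, had signals of 828, 69.5, 578 and 278 and a difference of -2.26 (-1.43 with normexp). PDGFRB was higher in both arms, at 2.11 and 1.04, and EGFR, ERBB2 and AXL differed by -0.10, 0.61 and 0.71. In the protease list MMP1 had mean signals of 32568, 3766, 59419 and 35115 over 10 spots and a difference of -2.09, and its sc siRNA array was 1.12 above DMSO. Of 17 inflammatory genes 1 was above 1 (ICAM1 at 1.02) and 5 were below -1, against 7.83% and 6.15% of all genes. The lower count was 8 with the 50th percentile or quantile normalisation and 3 with normexp. The 5 were CCL20 at -1.93, CXCL3 at -1.85, CXCL1 at -1.65, TNFAIP3 at -1.61 and CXCL8 at -1.47. The sc siRNA array was 0.73 above DMSO in the median of this list. Markers of other cell types gave PECAM1 at -1.95 and VWF at 1.64 of 5 that passed, both endothelial genes, with signals of 1846, 304, 1039 and 790.5 and of 30.9, 182, 35.9 and 81.1. With normexp CCL20, CXCL3 and VWF were at -0.97, -0.62 and 1.01.

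**Figure D5:**
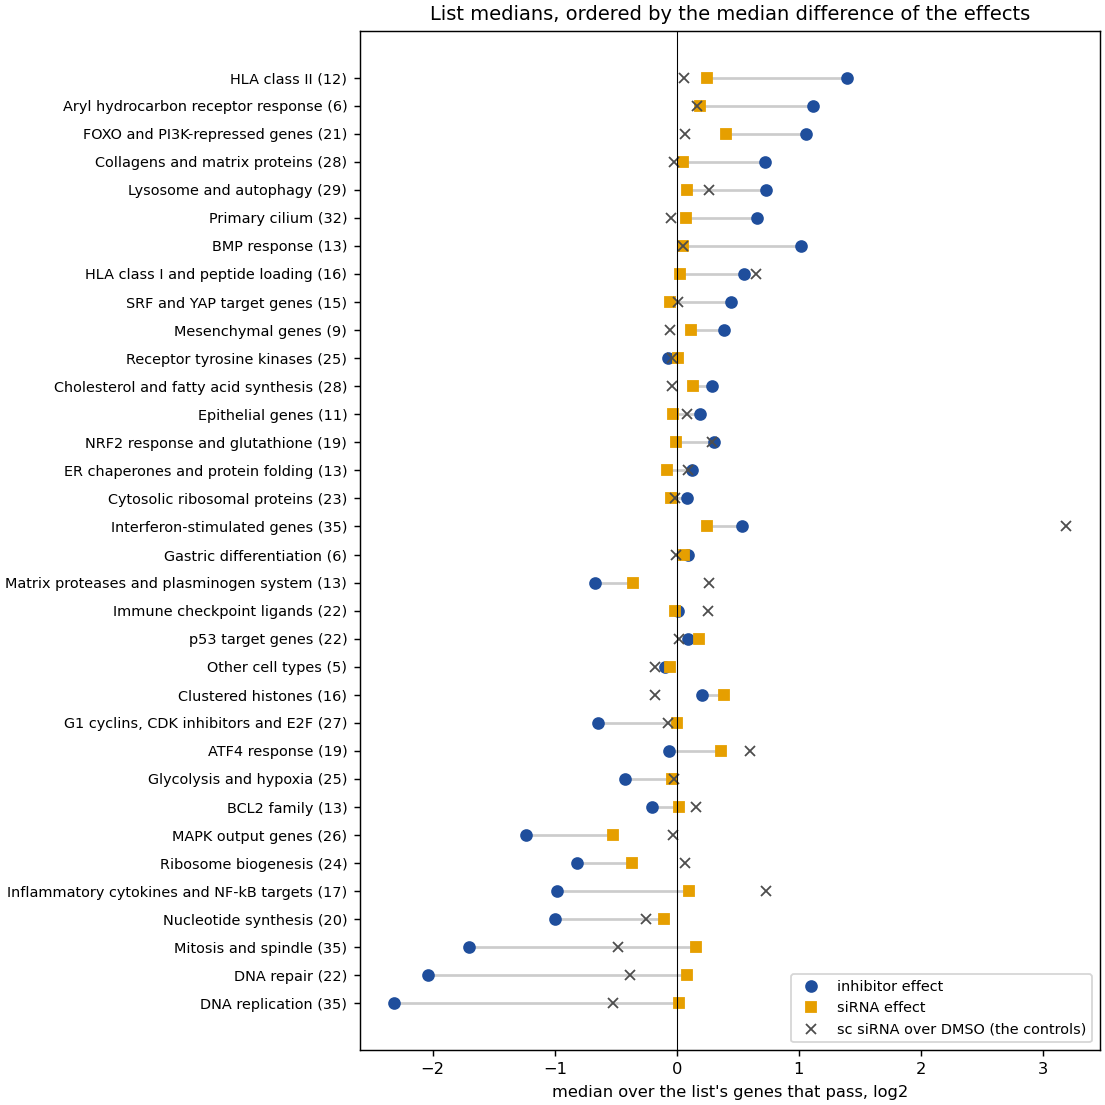
Each line is 1 of 34 gene lists with its number of genes in brackets, and symbols give the median inhibitor effect (circle), siRNA effect (square) and difference between the controls (cross) in log2. The replication list has the lowest inhibitor median (-2.32) and HLA class II the highest (1.40), while all siRNA medians lie between -0.52 and 0.41.

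Immune checkpoint ligands, whose regulation by MET the study examined, had 4 of 22 above 1 and 2 below -1. Among all genes these shares were 7.83% and 6.15%. The balance of the list turned with the scaling, to 1 above and 5 below with the 50th percentile and 2 above and 5 below with quantile normalisation. Directly between the PHA665752 and MET siRNA arrays 2 were higher and 6 lower by more than 2-fold, against 7.3% and 6.24% of all genes. CD274 (PD-L1) had signals of 2599, 314, 2096 and 1379, with effects of -2.84 and -0.65, a difference of -2.18. NECTIN1, at -1.73 (-0.97 with normexp), was the other gene below -1. CD70 (1.70), TNFSF4 (1.11), VSIR (1.07) and CD86 (1.05) were above 1, the last through an siRNA effect of -1.01 with an inhibitor effect of 0.04. The signals of CD86 were 124, 109, 305 and 156, so that the sc siRNA array alone was high. TNFSF9 (4-1BB ligand) and the stress ligand ULBP1 were higher in both arms, ULBP1 by nearly equal amounts of 1.15 and 1.17. PVR and PDCD1LG2 were both at -0.99, and TNFSF4 was at 0.59 and CD70 at 1.07 with normexp. HHLA2, CD40, MICB, NECTIN2 and NECTIN3 differed by less than 0.2, each with a sign that changed under another setting.

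A smaller set of members had a larger siRNA effect than inhibitor effect. GRIP2, a scaffold protein of glutamate receptors, had a signal of 20.8 with DMSO against 15.7 with the inhibitor, and 12.3 with sc siRNA against 147 with MET siRNA. Only the MET siRNA array was high, so its siRNA effect of 3.53 gave the difference of -3.71, or -1.37 with normexp. Its other 2 probes were not well above background on all arrays, with signals of 3.57 and 3.62 on the MET siRNA array. KRTAP4-3 (3.08), SYT2 (2.60), CD28 (2.12), ECHDC3 (2.11) and FREY1 (3.63) also had larger siRNA than inhibitor effects, and FREY1 had an inhibitor effect of 1.79 as well. Their signals were between 10.4 and 46.8 on the other 3 arrays and between 66.7 and 161.5 on the MET siRNA array, where the lowest signals called above background were 10.2 to 17.4 on the 4 arrays. The other probe of SYT2 that passed had an siRNA effect of -0.15, and the second probes of CD28 and KRTAP4-3 had signals under 4 on all arrays. With normexp their differences lay between -1.15 and -0.58. In the other direction PLCH2, a phospholipase C, was at -2.21 with siRNA from signals of 35.7, 55.7, 146 and 32.6, in which the sc siRNA array alone was high. Its difference of 3.07 was 1.55 with normexp. SLC13A3, CMYA5 and LGI4 had the same shape, with the sc siRNA array 1.79, 1.45 and 1.78 above DMSO, and differences of 0.57 to 0.71 with normexp. TAF5L was the reverse, its DMSO array being high, with signals of 88.6, 16.2, 12.2 and 23.8 and a difference of -3.16 (-1.16 with normexp). In 25 of the 804 lower members the siRNA effect was past 2-fold the other way, and in 12 of the 1023 higher members. GSTM2 alone was past 2-fold in opposite directions in both arms, at 1.55 and -1.32. Its second probe, not well above background on all arrays, was at 1.81 and 0.53.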

How the data were processed

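Single-colour Cy3 arrays (Agilent human 44K V2) were analysed, 1 for each of 4 conditions. The deposited files hold, for each spot, fluorescence intensity made by the authors with Agilent Feature Extraction, version 11.5.1.1 per the file headers. They give the processed signal after background subtraction, the background and outlier marks, and a call of well above background. The authors' normalised value table, in which the same processed intensity is deposited per probe, was within 0.05 signal units of it (0.034 on the log2 scale) over 33128 probes spotted once, and served as an alternative.

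Control spots and spots with outlier marks were left out. Log2 was taken per spot, the log2 values of a probe's spots were averaged and the 75th percentile of each array subtracted. Mean signals over repeated spots are therefore geometric means. Of the 34127 probes, 25767 (75.5%) were named through RefSeq accessions. A gene with several probes that passed was represented by the one with the highest mean level. The inhibitor effect, the siRNA effect and their difference were taken per gene. With 1 array a condition no test or replicate error exists, and depth is not defined for arrays, so the number of arrays limits the precision. The steps were tested on simulated data. Tools were Python 3.11.15, pandas 2.3.3, numpy 2.4.6, R 4.3.3 and limma 3.58.1 (normexp, offset 50).

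Genes named were the 15 highest and 15 lowest differences, the 5 largest opposite effects each way, the 5 each way with a larger siRNA effect of the same sign, the 3 largest of each of 34 lists with the one nearest 0 among those past 2-fold with the inhibitor, MET and the checkpoint ligands. Some genes are not reported here. Other list members were named after their values were seen. The lists, the contrast and the motifs were chosen with earlier results of these data known. The 0.5 band for a small siRNA effect, the line through all genes, the count of other probes, the direct comparison of the treated arrays and the promoters printed were chosen after the values were seen. Alternatives were 9 other scalings, filters and background corrections. Promoters were from RefSeq (GRCh38.p14), matched by symbol for 10424 of 13073 genes.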

Additional observations from a re-analysis of the deposited data

Results flagged for a closer look

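GSTM2, a glutathione transferase with near-identical relatives, was the only gene past 2-fold in opposite directions in the 2 arms, higher with the inhibitor and lower with siRNA, a difference of 2.87 on the log2 scale. Its signals were 36.2, 91.7, 92.9 and 38.6 on the DMSO, PHA665752, sc siRNA and MET siRNA arrays, so that the PHA665752 and sc siRNA arrays were high alike. A second probe of GSTM2, not well above background on all arrays, had an inhibitor effect of 1.81 and an siRNA effect of 0.53. On that probe both effects went the same way. The difference between the arms was not tested, since each condition had 1 array.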

How the results depend on the processing

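No paired analysis was possible because each condition had 1 array, and for the same reason no replicate could be left out. The count of 1023 genes above 1 became 659 with scaling by the 50th percentile, 1590 with the median of probes well above background, 553 with normexp background correction, 2028 with no filter on dim probes and 292 in the brighter part of the probes. The count of 804 below -1 became 1480 with no filter and 498 in the brighter part. With no filter 18751 genes entered and in the brighter part 7752, against 13073 at the main setting, so these counts have unlike totals. Quantile normalisation, the deposited value table, ignoring background outlier marks and the median over a gene's probes kept both counts within 1.5 times. Lists were read relative to the median of all genes. In the brighter part of the probes, where fewer genes remain, the ATF4 response changed sign from -0.32 to 0.031, the protease list went from 0.04 to -0.87, inflammatory genes from -0.75 to -0.17, MAPK output from -0.53 to -0.10, FOXO genes from 0.61 to 0.38 and other cell types from -0.19 to -1.95. Inflammatory genes were at -0.41 with no filter, -0.36 with normexp and -0.99 with quantile normalisation, and with normexp HLA class II went from 1.12 to 0.82 and DNA repair from -2.29 to -2.0. The cause of these shifts was not tested. No other list moved by more than 0.22, which is 1.96 times the spot noise of the difference. Of the 187 genes named by rule, 127 were past 2-fold and none of these changed sign under the alternatives that gave them a value (100 of the 187 were in the brighter part of the probes). Of the others 12 changed sign, PALM2AKAP2 from 0.75 to -0.26 with the median over probes and 11 from values within 0.25 of 0. With normexp 86 of the 187 moved by more than 0.22, with quantile normalisation 49 and with the median over probes 15. Normexp, which adds an offset, moved 45 of the named differences past 2-fold by over 1.5 times and left 23 of them past 2-fold. The spot noise of the difference was 0.19 for dim probes against 0.10 for brighter ones. The higher genes were mostly dim, with a median signal of 126.5 on the DMSO array against 921.8 over all genes.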

Other observations

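Probes with no RefSeq gene were left out of the counts above. Of 3282 such probes that passed the same filters, 315 had a difference above 1 and 130 below -1. Among the 13073 named genes these counts were 1023 (7.83%) and 804 (6.15%).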
